A study of Mus musculus with 40 samples.

Results

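The 9 genes described here were Dbp, Tef, Hlf, Nfil3, Ciart, Bhlhe40, Bhlhe41, Rgs16 and Lonrf3, measured in 40 mouse liver libraries. They were listed by symbol and matched to 9 of the 57186 Ensembl gene IDs that each deposited table holds. The list includes genes picked for genotype or diet patterns in these same libraries, so differences by genotype and by diet are given below as descriptions, with no p-value for any gene. That choice did not name differences between females and males or how the genes varied together within groups, and these were tested. The chow libraries enter both the contrasts behind the choice and the sex differences on chow, so the latter are not independent of it.

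The libraries were poly(A)-selected liver RNA from mice of the strain C57BL/6NCrl labelled WT or KO, in a study of mice with or without functional NNT, an inner mitochondrial membrane enzyme that makes NADPH. Females and males of each genotype were either kept on chow or moved at 11 to 13 weeks of age to a diet with 45 kcal% fat (HFD) for 11 weeks, which gave 8 groups of 5 libraries. All mice were 22 to 24 weeks old at the end and were killed 2 to 4.5 h after lights on, with no time given for the single mouse. The titles give this diet, whereas a treatment label differs from them in 20 of the 40 libraries. The library totals ran from 15973432 to 28159440 counts. Nothing in the labels ties a replicate number to a mouse or a batch, and p-values therefore reflect only how these libraries spread. Reads on Nnt gave no check of the genotype labels: WT libraries held 13 to 42 and KO libraries 13 to 54, with means of 1.35 and 1.33 CPM (counts relative to the scaled total of each library). WT and KO are therefore used below as the labels give them. Xist and Ddx3y matched the sex label in each library. Markers of hepatocytes summed to 61610 to 132300 CPM per library, against 130 to 506 CPM for macrophage and 91.9 to 202 CPM for endothelial markers.

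As background, the circadian clock is a feedback loop in which BMAL1 (Arntl) with CLOCK or NPAS2 drives genes through E-boxes (CACGTG), and PER, CRY, REV-ERB and other repressors shut that drive off again. Dbp, Tef and Hlf encode the PAR bZIP factors, which pass the rhythm on to liver genes of detoxification and metabolism through D-boxes, and Nfil3 encodes a repressor that binds the same elements. Ciart (CHRONO), Bhlhe40 (DEC1) and Bhlhe41 (DEC2) encode repressors of the CLOCK and BMAL1 pair. Rgs16 encodes an activator of the GTPase of Gi and Gq alpha subunits whose mRNA in mouse liver is known to follow feeding and carbohydrate, and Lonrf3 encodes a RING finger protein of the LON domain family.

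The 250 bases before the start were at hand in RefSeq (GRCm38.p6) for 8 of the 9 genes, with 2 starts for Tef. Shown are that of Dbp, the gene whose spread among libraries the other results turn on, and those of the 4 genes whose windows held the E-box, in lower case with each CACGTG in capitals.

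Dbp: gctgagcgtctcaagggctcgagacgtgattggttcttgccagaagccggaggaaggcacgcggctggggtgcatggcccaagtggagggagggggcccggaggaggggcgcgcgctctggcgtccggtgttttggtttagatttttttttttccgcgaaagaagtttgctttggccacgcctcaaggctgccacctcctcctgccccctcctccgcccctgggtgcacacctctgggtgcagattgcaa

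Tef: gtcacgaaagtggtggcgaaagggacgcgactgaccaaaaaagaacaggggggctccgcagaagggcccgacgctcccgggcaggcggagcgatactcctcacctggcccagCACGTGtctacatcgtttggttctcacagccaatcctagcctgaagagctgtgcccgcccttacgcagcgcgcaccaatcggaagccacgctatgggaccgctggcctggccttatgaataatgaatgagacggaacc

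Bhlhe41: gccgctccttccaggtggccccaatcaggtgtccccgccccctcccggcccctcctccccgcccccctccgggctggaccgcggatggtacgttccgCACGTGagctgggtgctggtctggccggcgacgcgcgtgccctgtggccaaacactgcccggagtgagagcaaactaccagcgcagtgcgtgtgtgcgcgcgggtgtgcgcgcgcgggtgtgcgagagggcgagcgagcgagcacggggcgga

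Ciart: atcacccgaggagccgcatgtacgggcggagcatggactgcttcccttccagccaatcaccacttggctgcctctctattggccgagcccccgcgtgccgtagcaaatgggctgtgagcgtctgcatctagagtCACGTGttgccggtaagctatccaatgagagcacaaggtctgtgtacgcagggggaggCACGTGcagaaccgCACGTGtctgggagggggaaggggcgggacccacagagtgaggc

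Lonrf3: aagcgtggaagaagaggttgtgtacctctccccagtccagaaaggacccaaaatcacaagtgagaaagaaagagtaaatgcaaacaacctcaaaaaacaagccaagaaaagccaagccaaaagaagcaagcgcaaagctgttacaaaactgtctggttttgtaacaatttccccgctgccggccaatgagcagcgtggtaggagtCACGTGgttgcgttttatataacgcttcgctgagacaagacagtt

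These windows lie at chr7:45704997-45705246, plus strand for Dbp, chr15:81811164-81811413, plus strand for Tef, chr6:145865421-145865670, minus strand for Bhlhe41, chr3:95882229-95882478, minus strand for Ciart and chrX:36328159-36328408, plus strand for Lonrf3. The E-box CACGTG, which is its own reverse complement, was present in 6.02% of the 32851 promoter windows of the same length. Ciart held it at 3 places, with first bases at -116, -58 and -44 from the start. Bhlhe41 held it at -153, Lonrf3 at -45, and both Tef windows held it, at -127 and -138. Both strands were also searched for the E-box variant CACGTT (3.85% of windows), for the D-box as TTATGTAA (0.819%) and as TTACGTAA (0.113%), and for a double E-box of the ChREBP type, which no window held. The Hlf window held the cAMP response element TGACGTCA at -9, present in 1.55% of windows. The Nfil3 window held, on the other strand at -12, the half-site TAGGTCA of REV-ERB and ROR, present in 2.23%. No match to any of these was found in the windows of Dbp and Rgs16, which says nothing of elements elsewhere. A match describes letters in a window and was not tested as a binding site.

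The 9 genes covered a wide range of levels. Per kilobase of exon (GENCODE M21 models), the mean over 40 libraries was 17.9 CPM for Nfil3, 16.8 for Bhlhe40, 14.2 for Rgs16, 9.18 for Hlf, 8.61 for Tef, 3.19 for Dbp, 1.14 for Lonrf3, 0.46 for Ciart and 0.19 for Bhlhe41. All 9 passed the filter on low counts. Because Bhlhe41 was low in the females, its place among the genes tested came from the males, and single libraries held as few as 1 read of Bhlhe41, 6 of Ciart and 6 of Dbp. Reads of Dbp could include some of Sphk2, which lies on the opposite strand, shares 539 bases (18.01%) of the exons of Dbp and held 45335 reads in all against 8182 on Dbp. Bhlhe41 shares 19.1% of its exon bases with Gm43909, which held 74 reads in all.

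**Figure D1:**
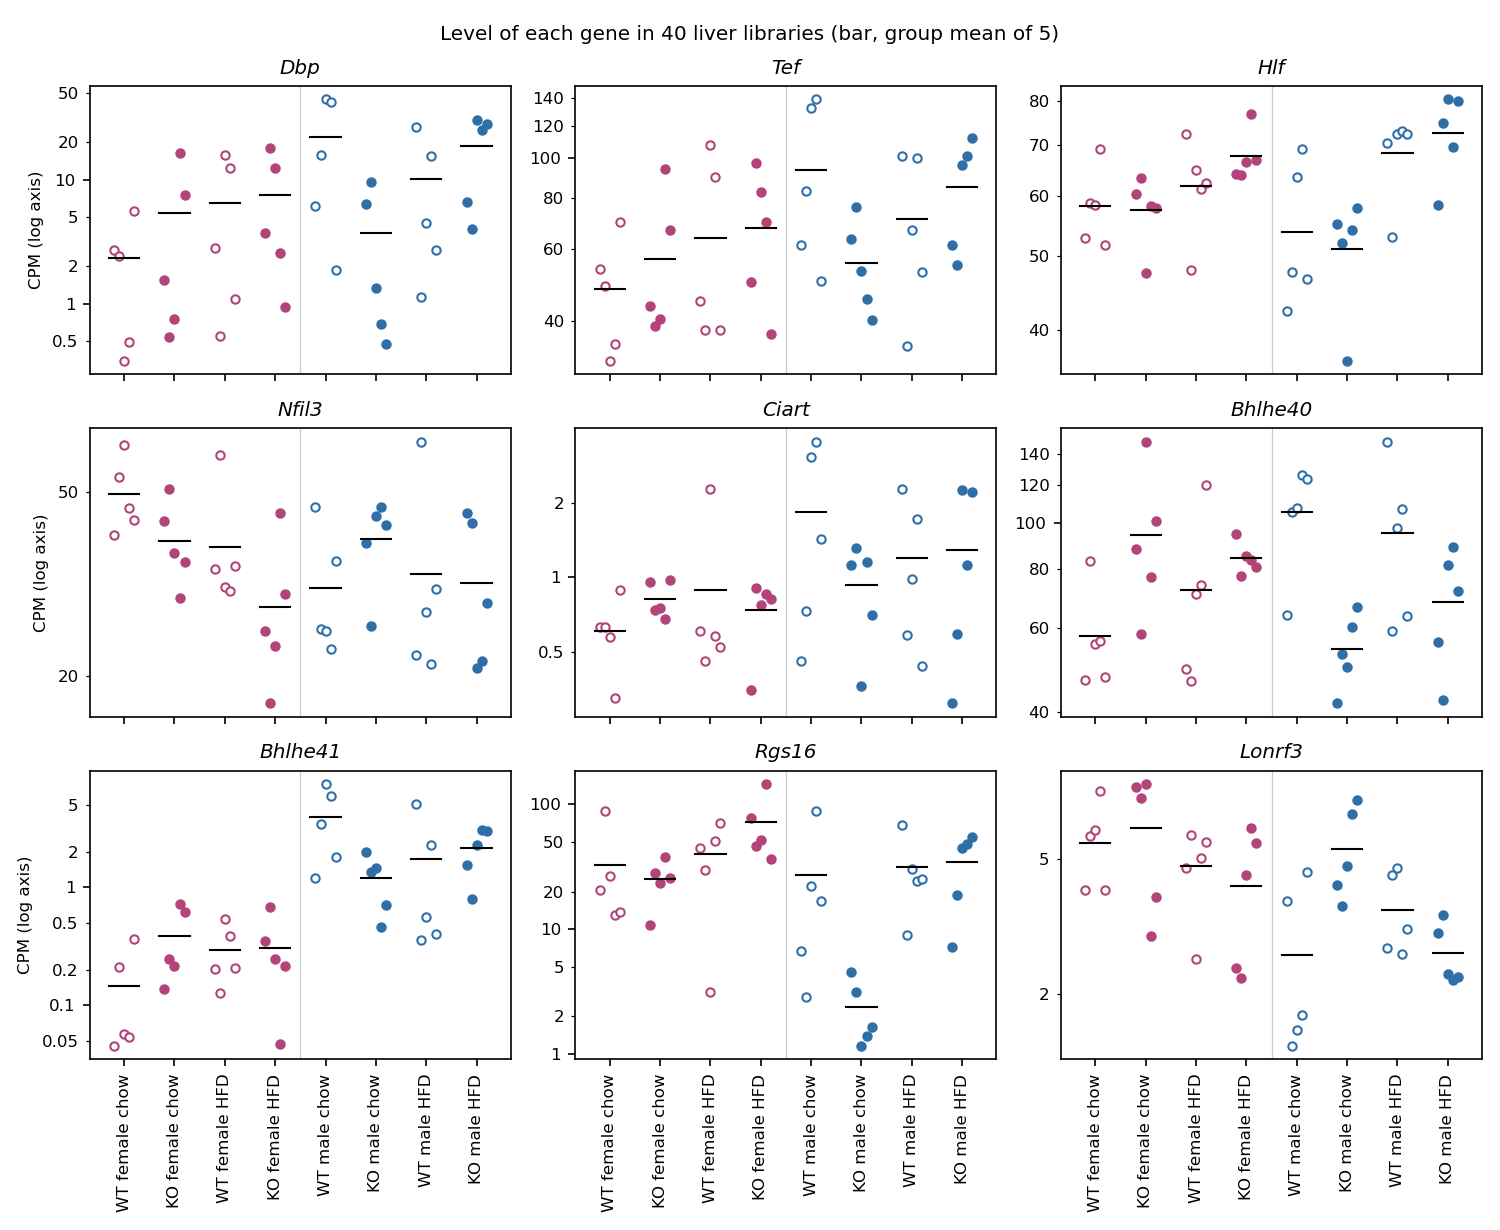
CPM (log axis) of each of the 9 genes in 40 libraries, by group. Each point is 1 library (pink, female; blue, male; open, WT; filled, KO) and each bar is the mean of 5. Dbp ran from 0.346 to 44.6 CPM, Bhlhe41 was lower in females and Rgs16 lay between 1.16 and 4.57 CPM in the KO males on chow.

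Dbp, the most rhythmic of the PAR bZIP genes in mouse liver, differed many-fold among libraries of the same group. In WT females on chow the 5 libraries held 2.72, 2.43, 0.346, 0.490 and 5.60 CPM. In KO females on chow they held 1.56, 0.541, 0.757, 16.5 and 7.59 CPM. The highest library of this second group lay 30.5-fold above its lowest, and the groups overlapped. On HFD, WT females held 2.84, 0.548, 15.7, 12.3 and 1.10 CPM, and KO females held 3.71, 17.9, 12.4, 2.57 and 0.947 CPM. Both HFD groups of females thus held 2 libraries above 12 CPM. The others lay between 0.548 and 2.84 CPM in WT and between 0.947 and 3.71 CPM in KO. WT males on chow held 6.16, 15.8, 44.6, 42.1 and 1.89 CPM, and KO males on chow held 6.42, 9.64, 1.34, 0.691 and 0.471 CPM. The 2 highest values of the series were in the former group and 3 of the 5 KO values lay below all 5 of its values. WT males on HFD held 26.5, 1.13, 4.49, 15.4 and 2.697 CPM, and KO males on HFD held 6.65, 4.01, 30.1, 24.9 and 27.9 CPM. Over the series the highest value was 129-fold the lowest, and within a group the ratio ran from 7.52 to 30.5. The biological coefficient of variation within groups was 1.07 for Dbp, at the 99.9th percentile of the genes tested, whose median was 0.148. It was 0.759 for Rgs16, 0.669 for Bhlhe41, 0.514 for Ciart, 0.381 for Tef, 0.338 for Lonrf3, 0.308 for Nfil3 and 0.284 for Bhlhe40. Hlf, at 0.138, was near the median gene.

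The spread of Dbp was shared by other clock outputs. Each library was expressed as its log2 CPM minus the mean of its own group, so that genotype, sex and diet were removed, and the 36 pairs of the 9 genes were compared over 40 libraries by permutation within groups. Of the 36 pairs, 19 had an adjusted p under 0.05, 10 with a positive and 9 with a negative correlation. Tef, the second PAR bZIP gene, followed Dbp with r = 0.95 (Spearman's rho 0.95; permutation p = 1e-05, the smallest that 100000 resamples give). Bhlhe41 followed Dbp with r = 0.80 (rho 0.78; permutation p = 1e-05), and Ciart with r = 0.58 (rho 0.57; permutation p = 0.00025). Nfil3, whose product opposes the PAR bZIP factors, ran opposite to Dbp with r = -0.76 (rho -0.81; permutation p = 1e-05). Lonrf3 also ran opposite, with r = -0.80 (rho -0.79; permutation p = 1e-05), and it went with Nfil3 at r = 0.67 (rho 0.70; permutation p = 1e-05). Without the 2 libraries farthest from the median of Dbp, r was 0.95 with Tef, 0.79 with Bhlhe41, 0.58 with Ciart, -0.76 with Nfil3 and -0.77 with Lonrf3. The adjusted p of each of these pairs was at most 0.00075, and each kept its sign in females alone and in males alone. In females alone, however, Ciart did not pass with Dbp (r = 0.46, adjusted permutation p = 0.16). Nor did it pass there with Tef (r = 0.56, adjusted permutation p = 0.059) or Bhlhe41 (r = 0.33, adjusted permutation p = 0.40). In males alone Ciart passed with each of these genes. The labels give no pairing of the 40 libraries, and the permutation takes the libraries of a group as exchangeable, which was not tested. The values of 1 library also share its depth and its scaling. With unscaled library totals, r between Dbp and Lonrf3 was -0.80.

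**Figure D2:**
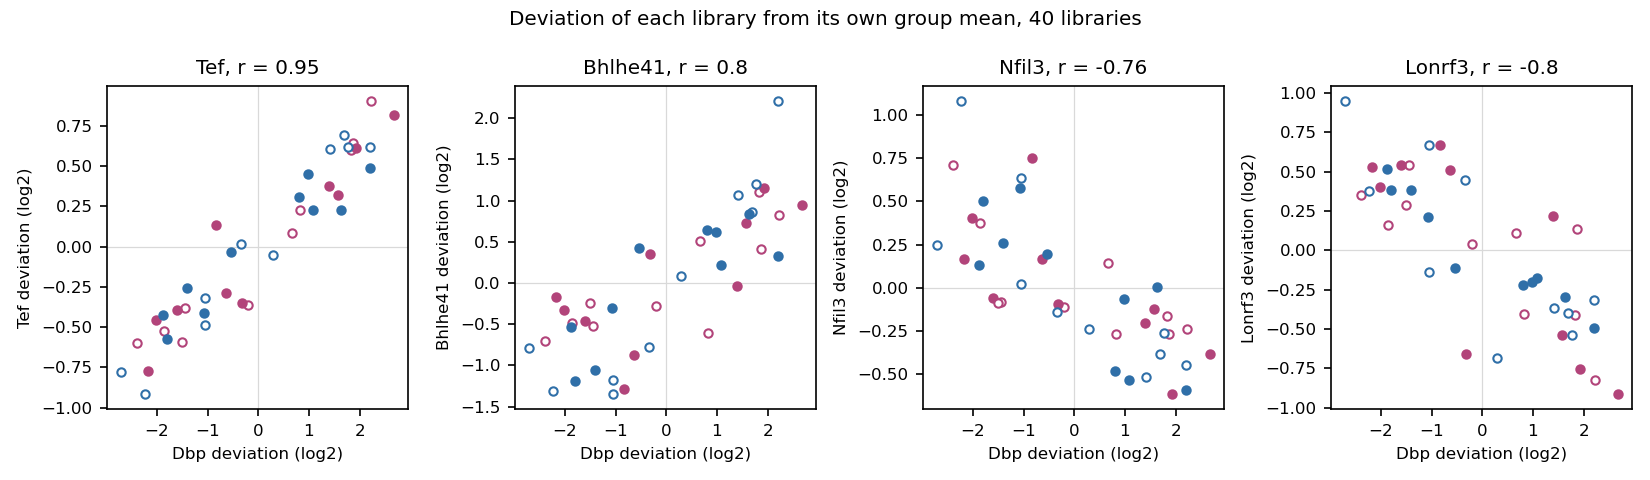
Deviation of Dbp (x axis, log2 CPM minus the mean of the library's own group) against that of Tef, Bhlhe41, Nfil3 and Lonrf3 (y axes) in 40 libraries. Colours and fills are as by group above (pink, female; open, WT). Tef and Bhlhe41 rise along Dbp (r = 0.95 and 0.80), and Nfil3 and Lonrf3 decline along it (r = -0.76 and -0.80).

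The remaining genes were tied less closely to Dbp. Hlf, the third PAR bZIP gene, had r = 0.29 with Dbp (rho 0.21; permutation p = 0.11) and r = 0.33 with Tef (rho 0.30; permutation p = 0.062), neither of which passed. It did pass with Ciart, at r = 0.56 (rho 0.47; permutation p = 0.0029, adjusted p = 0.0074). Bhlhe40 had r = 0.21 with Dbp (rho 0.18; permutation p = 0.24) and passed with Nfil3, at r = -0.49 (rho -0.41; permutation p = 0.0046, adjusted p = 0.010). Bhlhe40 and Bhlhe41, the paired DEC repressors, had r = 0.40 (rho 0.34; permutation p = 0.028, adjusted p = 0.050). Rgs16 passed with Hlf alone among the 8 other genes, at r = 0.45 (rho 0.42; permutation p = 0.018, adjusted p = 0.037), and by rank also with Bhlhe40 (rho 0.43, adjusted permutation p = 0.026). In females alone, Hlf had r of 0.06 with Ciart and 0.04 with Rgs16, and Nfil3 and Bhlhe40 had r = -0.19 (adjusted permutation p = 0.81) against -0.71 in males (adjusted permutation p = 0.0057).

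**Figure D3:**
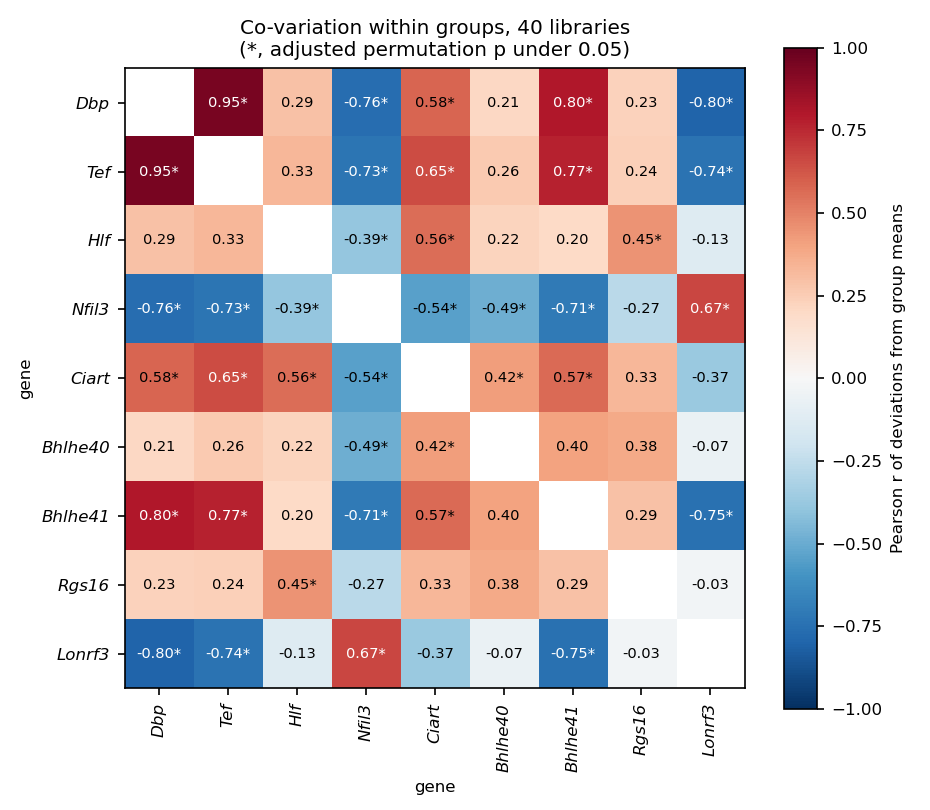
Pearson r of deviations from group means for each pair of the 9 genes over 40 libraries, on a colour scale from -1 to 1. An asterisk marks an adjusted permutation p under 0.05, carried by 19 of 36 pairs. Dbp, Tef, Bhlhe41 and Ciart form a positive block that is negative against Nfil3, and Dbp, Tef and Bhlhe41 are also negative against Lonrf3.

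Part of the core clock varied along the same axis. Among 16 core clock genes, 4 went with Dbp and 3 ran opposite at an adjusted p under 0.05, taken over 891 pairs of the 9 genes with pathway genes. Those opposite were Npas2 (r = -0.82, rho -0.86), Arntl (r = -0.80, rho -0.82) and Cry1 (r = -0.76, rho -0.74), each with an adjusted permutation p of 0.00032. Those that went with it were Nr1d2, which encodes REV-ERB beta (r = 0.91, rho 0.91), Per3 (r = 0.88, rho 0.89), Nr1d1, which encodes REV-ERB alpha (r = 0.80, rho 0.85), and Cry2 (r = 0.75, rho 0.72), with adjusted permutation p between 0.00032 and 0.00056. Tef and Bhlhe41 passed with 7 of the 16 core genes as well, and Hlf and Rgs16 with 0 of 16. The share of all genes that pass with each of the 9 genes was not computed. Counts of co-varying list genes, here and below, are therefore not read as particular to a list. The 16 other clock-controlled genes were less uniform: 1 went with Dbp (Wee1, a cell cycle kinase, r = 0.53, rho 0.46, adjusted permutation p = 0.013) and 3 ran opposite. These were Cdkn1a, the p21 inhibitor of cyclin-dependent kinases (r = -0.75, rho -0.78), Leo1 (r = -0.65, rho -0.64) and Avpr1a, the V1a vasopressin receptor (r = -0.63, rho -0.66), with adjusted permutation p between 0.00032 and 0.00056.

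Of 13 xenobiotic genes, a process on which PAR bZIP factors are known to act, Cyp2a5 was the 1 gene that passed with Dbp. Cyp2a5 encodes a coumarin hydroxylase and is a known DBP target in mouse liver. Its r was 0.75 with Dbp (rho 0.74; adjusted permutation p = 0.00032) and 0.82 with Tef (rho 0.83; adjusted permutation p = 0.00032), and it was -0.56 with Nfil3 (rho -0.53; adjusted permutation p = 0.012). Cyp2a4 is nearly identical in sequence, so reads of the pair may have been divided or dropped. Hlf passed with 2 others of this list, Nr1i3, which encodes the nuclear receptor CAR (r = 0.60, rho 0.63, adjusted permutation p = 0.0075), and Cyp2c50 (r = 0.45, rho 0.52, adjusted permutation p = 0.038).

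By likeness over 12554 genes that had a symbol and averaged 1 CPM or more, the 3 genes closest to Dbp were Tef, Nr1d2 and Per3, with r of 0.95, 0.91 and 0.88 over 40 libraries. Ppard, which encodes the nuclear receptor PPAR delta, was the most opposite, at -0.91. Lonrf3 was closest to Ppard (0.82), Rhobtb1 (0.81) and Lgalsl (0.77), and most opposite to Dbp (-0.80). Nfil3 was closest to Pnrc1, a nuclear receptor coactivator (0.89), Dpp9 (0.77) and Arntl (0.77). Bhlhe41 was closest to Dbp (0.80), Tef (0.77) and Per3 (0.77). Ciart was closest to Prps2 (0.74), Lclat1 (0.73) and the clock-controlled ubiquitin protease Usp2 (0.70). Hlf was closest to Ubr3, a ubiquitin ligase (0.83), Plpp3 (0.73) and Abcc2, the canalicular transporter MRP2 (0.72), and most opposite to Mst1 (-0.81). Genes close to Bhlhe40 included Proser1 (0.67) and Trak1 (0.64).

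The sexes differed most in Bhlhe41, the DEC2 repressor. In females its counts per library ran from 1 to 17 and in males from 8 to 178. WT females on chow held 0.0454, 0.212, 0.0576, 0.0545 and 0.366 CPM, and WT males on chow held 1.21, 3.44, 7.54, 5.93 and 1.83 CPM. The groups did not overlap, and the male mean of 3.99 CPM was 27.1-fold the female mean of 0.147 CPM. KO females on chow held 0.137, 0.246, 0.216, 0.728 and 0.614 CPM, and KO males on chow held 1.99, 1.36, 1.47, 0.461 and 0.707 CPM, which overlap. On HFD, WT females held 0.203, 0.126, 0.544, 0.387 and 0.209 CPM, and WT males held 5.14, 0.361, 0.562, 2.27 and 0.403 CPM. These overlap too, with 2 males above 2 CPM. KO females on HFD held 0.353, 0.683, 0.246, 0.0475 and 0.215 CPM, all below the KO males on HFD at 1.56, 0.801, 2.29, 3.10 and 3.04 CPM. Averaged over the 4 strata of genotype and diet, Bhlhe41 was lower in females by a log2 difference of -2.90 ± 0.35 (SE; edgeR quasi-likelihood adjusted p = 1.49e-08). With no filter on low counts, through which the male levels had brought it into the test, the difference was -2.90 ± 0.36 (edgeR adjusted p = 8.07e-08). Within strata the log2 difference, female minus male, was by edgeR -4.73 ± 0.76 in WT on chow (adjusted p = 1.34e-05), -2.55 ± 0.69 in WT on HFD (adjusted p = 0.00671) and -2.78 ± 0.67 in KO on HFD (adjusted p = 0.00278). The value in WT on chow rests on libraries that the choice of genes also used, so its p-value is not independent of that choice. In KO on chow the difference was -1.56 ± 0.68, with an adjusted p of 0.0983 in edgeR. Fitted with only the groups compared it passed there (-1.55 ± 0.47, edgeR adjusted p = 0.0255), whereas in WT on HFD it then did not pass the filter on low counts and was not tested. The WT call on HFD was lost without WT male HFD replicate 1 (-1.59, adjusted p = 0.0910 in edgeR). Since Bhlhe41 followed Dbp within groups, the difference was also fitted with log2 CPM of Dbp as a covariate, a choice made after the data were seen. It was then -2.22 ± 0.22 on average (edgeR adjusted p = 4.39e-11) and passed in each stratum, from -3.06 ± 0.48 in WT on chow to -1.89 ± 0.41 in WT on HFD. In whole liver, fewer cells of a type and less RNA per cell cannot be told apart.

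**Figure D4:**
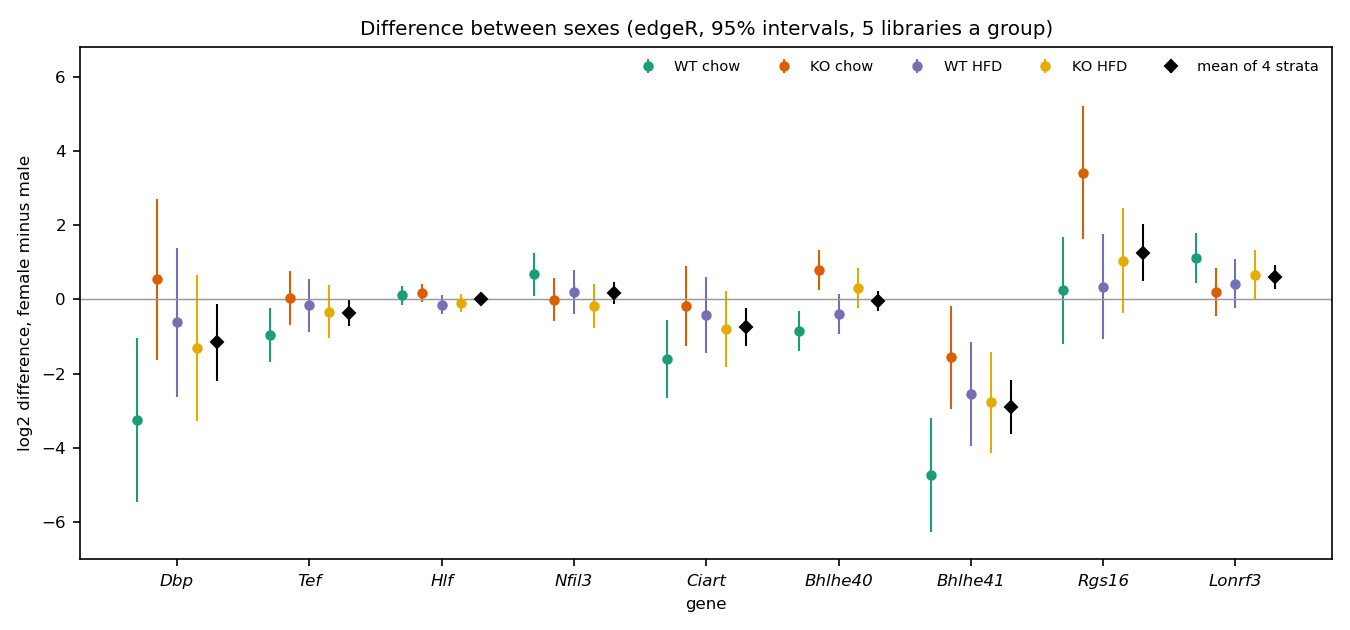
Log2 difference, female minus male, of each gene in the 4 strata of genotype and diet (circles) and their mean (diamonds), with 95% intervals from edgeR. The estimate of Bhlhe41 lies below 0 in each stratum, with a mean of -2.90, and the Rgs16 value of 3.41 is that of KO on chow.

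Over the 9 genes, 4 (Bhlhe41, Ciart, Lonrf3 and Rgs16) passed in the mean over strata against 50.0% of the 15627 genes tested, so the share of the 9 was close to that of all genes. In single strata 6 passed in WT on chow (23.2% of all genes), 2 in KO on chow (Bhlhe40 and Rgs16; 23.1%), 1 in WT on HFD (21.4%) and 1 in KO on HFD (19.2%). The counts in the mean and in KO on chow include Rgs16, whose difference rests on the KO chow groups and is given below as a description. Those in WT on chow and in KO on chow include Bhlhe40, which is also given as a description. Lonrf3, which lies on chromosome X, was higher in females by 0.60 ± 0.16 in the mean (edgeR adjusted p = 0.00247), and Ciart was lower by a log2 difference of -0.75 ± 0.26 (edgeR adjusted p = 0.0148). Ciart averaged 0.767 ± 0.399 CPM (SD, n = 20) in females and 1.31 ± 0.916 CPM in males. Both calls rested on the chow WT groups. With these left out, Lonrf3 had 0.43 ± 0.19 (edgeR adjusted p = 0.063) and Ciart -0.47 ± 0.30 (edgeR adjusted p = 0.21), while Bhlhe41 kept -2.29 ± 0.39 (edgeR adjusted p = 1.14e-05). With Dbp as a covariate Ciart had -0.31 ± 0.23 (edgeR adjusted p = 0.277) and Lonrf3 0.29 ± 0.11 (edgeR adjusted p = 0.0231). Dbp itself had -1.16 ± 0.51 (edgeR adjusted p = 0.0586), which passed in DESeq2 (-1.16 ± 0.49, adjusted p = 0.0497) and, without the chow KO groups, in edgeR (-1.73 ± 0.58, adjusted p = 0.0163). Tef had -0.36 ± 0.18 (edgeR adjusted p = 0.0947). In WT on chow alone (the stratum with most of the calls), Dbp was lower in females by a log2 difference of -3.25 ± 1.09 (edgeR adjusted p = 0.0283) and Tef by -0.96 ± 0.36 (edgeR adjusted p = 0.0484). Neither call held with only the groups compared (edgeR adjusted p = 0.0538 for Dbp and 0.0882 for Tef) or with no filter on low counts (0.0547 and 0.0877). That of Dbp was lost on leaving out any of 6 libraries, WT female chow replicates 1 to 4 and WT male chow replicates 3 and 4 (edgeR adjusted p from 0.0521 to 0.0739). That of Tef was lost without any of 21 libraries, these 6, WT male chow replicate 2 and 14 of groups outside the comparison (KO female chow 1, 3 and 5, KO female HFD 1, 3 and 4, KO male chow 1, 3, 4 and 5, WT male HFD 3 and 5, KO male HFD 3 and 4), with edgeR adjusted p up to 0.134. The Ciart call there was lost with no filter on low counts (edgeR adjusted p = 0.054) and without WT male chow replicate 3 (edgeR adjusted p = 0.0771) or 4 (0.0915) or WT female chow replicate 4 (0.0617), and that of Lonrf3 without WT female chow replicate 4 (0.0522). The chow WT males also enter the genotype and diet contrasts that the choice of genes used. The p-values in WT on chow are therefore not independent of that choice. The same holds for those of the mean that rest on the chow WT groups, and nothing is read from either. Hlf, Nfil3 and Bhlhe40 had mean log2 differences of 0.01 ± 0.06, 0.17 ± 0.14 and -0.04 ± 0.13, with 95% intervals from -0.12 to 0.13, from -0.12 to 0.46 and from -0.31 to 0.23. Bhlhe40 was lower in females in WT on chow (-0.86 ± 0.26) and higher in KO on chow (0.80 ± 0.26). Both values rest on the chow libraries that also give its genotype differences below, so they are given as a description. The value in KO on chow was not past the edgeR threshold without KO female chow replicate 3 or KO male chow replicate 1 or 3.

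In the core clock list, 3 of 16 genes were higher and 3 lower in females, with a median log2 difference of -0.03 against 0.01 over all genes. The lists were chosen with earlier results of these data known, so their counts are a description. Over all genes tested 50.0% passed in this contrast, which is the background of each list count in this paragraph. The core clock list lay below that share. Per2 (-0.73 ± 0.11, edgeR adjusted p = 1.24e-06) and Clock (-0.18 ± 0.04, edgeR adjusted p = 0.000235) were lower. Csnk1e, a kinase of PER proteins (0.25 ± 0.08, edgeR adjusted p = 0.005), and Npas2 (0.74 ± 0.28, edgeR adjusted p = 0.0297) were higher. In place of these 6, 3 of the 16 passed without the chow WT groups, with no filter on low counts, without WT female HFD replicate 2 and without KO female HFD replicate 5. In the list of G protein alpha subunits, on which Rgs16 acts, 1 of 8 was higher (Gnai2, 0.14 ± 0.04, edgeR adjusted p = 0.00171) and 3 were lower, the furthest Gnai1 (-1.64 ± 0.16, edgeR adjusted p = 1.49e-11). Of 9 measured RGS genes other than Rgs16, 6 were higher in females and 0 lower, with a median of 0.69, among them Rgs2 (0.86 ± 0.09, edgeR adjusted p = 1.65e-10) and Rgs12 (0.85 ± 0.10, edgeR adjusted p = 5.06e-09). Macrophage markers were higher in females too (6 of 6, median log2 difference 0.90), as were endothelial (5 of 5, 0.40) and stellate markers (5 of 5, 0.40). The summed macrophage markers ran from 233 to 506 CPM in the groups of females and from 130 to 276 CPM in those of males, with none at 0. Their part in the RGS counts was not tested.

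Rgs16 stood apart by a single group. WT females on chow held 20.7, 89.1, 26.5, 13.1 and 13.8 CPM, and KO females on chow held 10.8, 28.4, 23.5, 37.9 and 25.7 CPM. WT males on chow held 6.67, 2.88, 22.3, 88.0 and 16.9 CPM, and KO males on chow held 4.57, 3.13, 1.16, 1.38 and 1.65 CPM. Of the 5 KO males on chow, 3 lay below every library of the other groups, whose lowest were 2.88 and 3.13 CPM. On HFD, WT females held 44.7, 29.8, 3.13, 51.2 and 71.0 CPM, and KO females held 78.4, 46.7, 52.0, 146 and 36.4 CPM. WT males on HFD held 68.9, 8.94, 30.4, 24.3 and 25.4 CPM, and KO males on HFD held 7.22, 18.9, 45.1, 47.8 and 54.8 CPM. By mean CPM the groups ran from KO males on chow at 2.38 ± 1.45 (SD, n = 5) through KO females on chow (25.3 ± 9.78), WT males on chow (27.4 ± 34.8), WT males on HFD (31.6 ± 22.3), WT females on chow (32.6 ± 32.03), KO males on HFD (34.8 ± 20.5) and WT females on HFD (39.96 ± 25.4) to KO females on HFD (71.9 ± 44.2). The KO males on chow did not overlap the KO females on chow, and every later pair of neighbours in this order overlapped.

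In KO males the HFD mean of Rgs16 was 14.6-fold the chow mean, with no overlap, a log2 difference of 3.88 ± 0.88 on the edgeR scale. In the other strata the diet difference was 0.29 ± 0.70 in WT females, 1.51 ± 0.71 in KO females and 0.19 ± 0.70 in WT males. By genotype, KO minus WT as labelled, it was -3.54 ± 0.88 in males on chow, -0.37 ± 0.71 in females on chow, 0.85 ± 0.69 in females on HFD and 0.14 ± 0.70 in males on HFD. The diet and genotype differences of the males share the KO chow group and are not independent of each other. The female minus male difference of 3.41 ± 0.88 in KO on chow rests on the same 5 libraries and is given as a description. Without the chow KO groups, the mean sex difference of Rgs16 was 0.54 ± 0.40 (edgeR adjusted p = 0.292), against 1.26 ± 0.38 with them.

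Within groups, Rgs16 was closest to Txnip, a glucose-induced arrestin-domain gene, with r = 0.77 (rho 0.75; adjusted permutation p = 0.00032), and then to Pank1, which encodes a pantothenate kinase of coenzyme A synthesis (0.75), and Ppfibp1 (0.73). The interferon-induced GTPase gene Ifi47 was the most opposite (-0.68). Of 15 targets of ChREBP, the carbohydrate-response factor that is known to drive Rgs16 in mouse liver, 2 passed with it, among them Txnip. The median r of the 15 was 0.41. Bhlhe40 passed with 7 of the 15, all positive, among them Thrsp (r = 0.64, rho 0.55, adjusted permutation p = 0.0080) and the fatty acid synthase gene Fasn (r = 0.63, rho 0.53, adjusted permutation p = 0.0071). Dbp, Tef, Ciart, Bhlhe41 and Lonrf3 passed with 0 of the 15. How many of all genes pass with Rgs16 or Bhlhe40 was not computed, so these counts have no background. Glycogen synthase 2 (Gys2), a clock-controlled gene, also passed with Rgs16 (r = 0.62, rho 0.67, adjusted permutation p = 0.012).

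The r of Rgs16 with Ciart, Tef, Dbp and Nfil3 had opposite signs in females and males, a difference that was not tested. Among the 20 males r was 0.82 with Ciart, 0.72 with Hlf, 0.68 with Tef, 0.61 with Dbp and -0.62 with Nfil3, with adjusted permutation p between 0.0012 and 0.014. Among the 20 females r was -0.59 with Ciart, 0.04 with Hlf, -0.22 with Tef, -0.16 with Dbp and 0.24 with Nfil3, with adjusted permutation p of 0.22 or more. WT female HFD replicate 3 held the lowest Rgs16 (3.13 CPM) and the highest Ciart (2.27 CPM) of the females. Without it r over the other 19 females was -0.06 with Ciart, 0.21 with Hlf, 0.17 with Tef and 0.14 with Dbp. Over all 39 remaining libraries it was 0.64 with Ciart (adjusted permutation p = 0.0025) and 0.42 with Dbp (adjusted permutation p = 0.022).

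**Figure D5:**
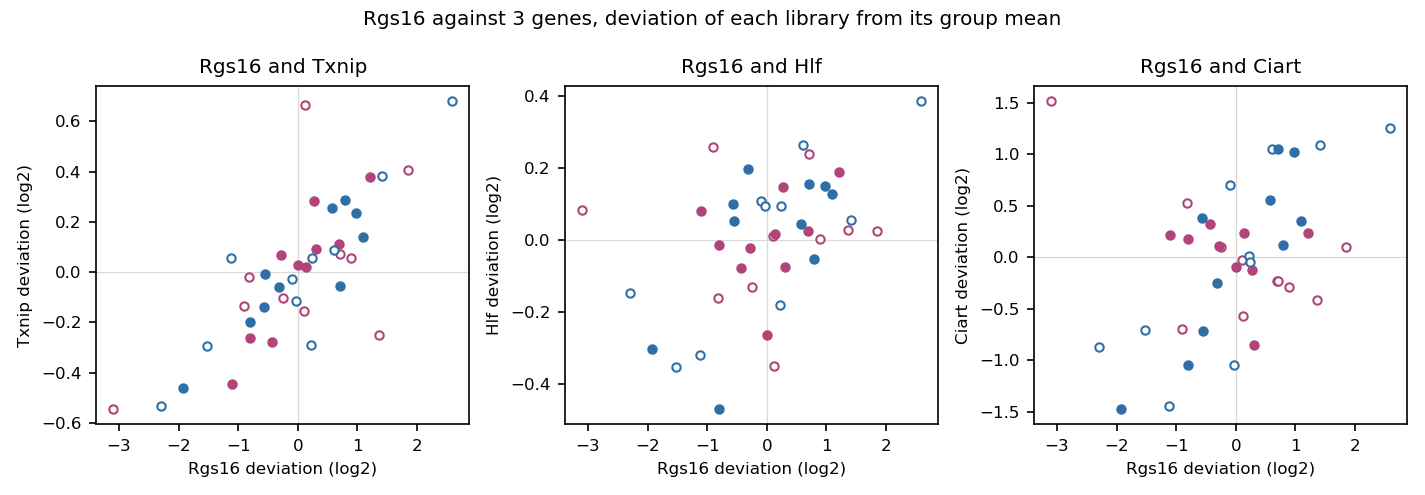
Deviation of Rgs16 from its group mean (x axis, log2 CPM) against that of Txnip, Hlf and Ciart (y axes) in 40 libraries (pink, female; blue, male; open, WT; filled, KO). Txnip rises along Rgs16 (r = 0.77), and the open pink point at the far left of each panel is WT female HFD replicate 3.

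Hlf, like Rgs16, had a higher mean CPM on HFD than on chow in each stratum. Dbp and Tef did too, except in WT males. KO males held 55.1, 52.0, 36.4, 54.1 and 57.8 CPM on chow and 58.4, 74.7, 80.4, 69.5 and 79.99 CPM on HFD, with no overlap. KO females held 60.4, 63.2, 47.5, 58.1 and 57.8 CPM on chow and 64.0, 63.9, 66.4, 76.9 and 66.8 CPM on HFD, again with no overlap though the nearest values were 63.2 and 63.9 CPM. The log2 difference, HFD minus chow, was 0.51 ± 0.13 in KO males, 0.34 ± 0.13 in WT males, 0.24 ± 0.12 in KO females and 0.09 ± 0.12 in WT females. WT males on chow reached 69.0 CPM and WT males on HFD began at 53.0 CPM, so these groups overlapped. With each library left out in turn, the KO male difference of Hlf ranged from 0.41 to 0.58, and that of Rgs16 from 3.65 to 4.22.

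Lonrf3 was lower on HFD in KO males without overlap, at 4.17, 3.63, 4.76, 6.74 and 7.42 CPM on chow and 3.01, 3.42, 2.29, 2.21 and 2.24 CPM on HFD. Its log2 difference there was -1.02 ± 0.33, and it was 0.46 ± 0.34 in WT males. Dbp had 2.32 ± 1.04 in KO males and -1.16 ± 0.95 in WT males, with overlap in both. Over the 9 genes, 2 (Hlf and Rgs16) were past the edgeR threshold in the diet mean, where 24.4% of all genes were, and the same 2 in KO males, where 4.44% were and DESeq2 called 3 (Hlf, Lonrf3 and Rgs16). In WT females (2.69%), KO females (4.87%) and WT males (11.4%) 0 of 9 were past it in edgeR, and 0, 1 and 2 had an unadjusted p under 0.05 (14.9%, 16.3% and 25% of all genes), with 0 in each by DESeq2. Diet patterns were used in the choice of genes, so nothing is read from these counts.

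Of 13 xenobiotic genes, 10 were lower on HFD in the mean over strata and 0 higher, with a median log2 difference of -0.47 against 0.00 over all genes. The lists were chosen with earlier results of these data known, so their counts are a description. Over all genes tested 24.4% passed in this contrast, which is the background of each list count in this paragraph. Cyp2b10, the phenobarbital-inducible cytochrome, had -4.43 ± 0.21 (edgeR adjusted p = 4.49e-17). Of the 16 core clock genes 1 was higher, Per1 (1.13 ± 0.27, edgeR adjusted p = 0.00193) and 1 was lower. Of 15 ChREBP targets, 3 were higher and 5 lower, the lowest Thrsp at -1.39 ± 0.23 (edgeR adjusted p = 2.80e-05). Of 13 fasting-response genes, 5 were higher and 1 lower, with Fgf21 at 2.27 ± 0.24 (edgeR adjusted p = 8.80e-09). Of 9 other RGS genes 2 were higher, Rgs5 (0.46 ± 0.05, edgeR adjusted p = 1.94e-09) and Rgs4 (0.75 ± 0.19, edgeR adjusted p = 0.00333). Stellate markers were higher on HFD in 3 of 5 and endothelial markers in 3 of 5, and their part in these 2 values was not tested.

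By genotype, 0 of 9 genes were past the edgeR threshold in the mean or in any stratum. The share of all genes past it was 0.00640% in females on HFD and 0% in the mean and in the other strata, where DESeq2 called between 0 and 6 genes. At an unadjusted p under 0.05 there were 0 of 9 in the mean (6.55% of all genes), 6 in males on chow (8.16%), 1 in females on chow (4.34%) and 0 in females and males on HFD (6.19% and 6.82%). DESeq2 called 1, Rgs16 in males on chow. Genotype patterns were used in the choice of genes, and nothing is read from these counts. In males on chow, libraries labelled KO held Bhlhe40 at 41.7, 53.0, 49.8, 60.3 and 66.5 CPM and those labelled WT at 64.0, 106, 107, 126 and 124 CPM, a log2 difference of -0.96 ± 0.27. In females on chow the direction was opposite, with 88.2, 58.3, 148, 76.8 and 101 CPM in KO and 46.8, 83.4, 55.6, 56.6 and 47.4 CPM in WT, a difference of 0.71 ± 0.26. Bhlhe40 groups overlapped in both sexes. In males on chow, Dbp had -2.57 ± 1.04, Tef -0.75 ± 0.36, Bhlhe41 -1.76 ± 0.58, Ciart -0.99 ± 0.50 and Lonrf3 1.05 ± 0.34, KO minus WT. In males on HFD the same genes had 0.91 ± 0.95, 0.26 ± 0.35, 0.33 ± 0.57, 0.13 ± 0.49 and -0.42 ± 0.33. In the genotype mean 0 genes passed in each pathway list by edgeR. The differences between strata (genotype by sex, genotype by diet and diet by sex) passed for 0 of 9 genes by edgeR and by DESeq2 against 0%, 0% and 0.486% of all genes by edgeR. At an unadjusted p under 0.05 they were 2, 2 and 1 of 9, against 7.70%, 6.71% and 10.1% of all genes.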

How the data were processed

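Liver RNA was measured in 40 libraries, in 8 groups of 5. The authors deposited a table of raw read counts per Ensembl gene ID for each library. STAR 2.7.10b, featureCounts 2.0.6 and the build mm39 are named per the submitters' processing notes. Which gene models were counted, and whether strand was used, is not given in the sources used here, so reads of overlapping genes on opposite strands may be mixed. Symbols were matched for 51880 of 57186 IDs (90.7%), which held 99.7% of the counts. Groups follow the sample titles, because the treatment label differs from the title's diet in 20 libraries. In 80 pairs of replicates 0 were identical, and the lowest chi-square per degree of freedom was 7.98, so each library was counted as 1 sample.

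Counts were fitted with edgeR 4.0.16 in R 4.3.3 (filterByExpr, 15627 genes, TMM scaling, robust quasi-likelihood, 8 group means over all 40 libraries). Genes were called at a Benjamini-Hochberg adjusted p under 0.05 over all genes of a contrast, and SE was the log2 difference divided by the root of F. CPM used the TMM-scaled library size, and intervals cover 95%. Co-variation used log2 CPM (prior count 2) minus group means, with 100000 permutations within groups and adjustment over 36 pairs, or 891 pairs with pathway genes (Python 3.11.15, numpy 2.4.6, scipy 1.17.1). The procedure was tested on simulated data. Alternatives were DESeq2 1.42.0, other scaling and filters, a replicate block, only the groups compared, each sex alone and each library left out.

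The members, the pathway and marker lists and the tests were chosen with earlier results of these data known. Named by rule were the 9 genes, their 3 most similar genes and 1 most opposite gene, and up to 4 called genes of each list with the smallest adjusted p in a contrast. Pathway genes named for co-variation were chosen after their values were seen. Some genes that these rules name are not reported here. Promoter letters came from RefSeq on GRCm38.p6, and no coordinates of mm39 were used.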

Additional observations from a re-analysis of the deposited data

Results flagged for a closer look

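In 10 of 72 sets of 5 libraries (9 genes in 8 groups), 1 library lay far from the other 4, with a gap over the range above the Dixon critical value of 0.71. Chance gives this in about 1 set in 20 where values are normally distributed and sets are independent. These sets hold unlogged CPM of genes that vary together in the same libraries, so no excess is read from the count. Hlf was flagged 3 times. It was 76.92 CPM in KO female HFD replicate 4, with the others between 63.89 and 66.82 CPM. In KO male chow replicate 3 it was 36.39 CPM, with the others between 51.98 and 57.79 CPM, and in WT male HFD replicate 2 it was 53.03 CPM, with the others between 70.41 and 73.02 CPM. Nfil3 was highest in replicate 2 of both WT HFD groups, at 60.05 CPM in females (others 30.45 to 34.6 CPM) and 64.18 CPM in males (others 21.14 to 30.79 CPM). Dbp was lowest of its group in both of these libraries, at 0.547 and 1.13 CPM. Ciart was 2.265 CPM in WT female HFD replicate 3, with the others between 0.4632 and 0.6081 CPM, and 0.353 CPM in KO female HFD replicate 1, with the others between 0.7773 and 0.9108 CPM. Bhlhe40 was 83.37 CPM in WT female chow replicate 2, with the others between 46.81 and 56.6 CPM. Rgs16 was 89.07 CPM in that same library, with the others between 13.07 and 26.49 CPM, and 88.01 CPM in WT male chow replicate 4, with the others between 2.875 and 22.29 CPM.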

How the results depend on the processing

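Of the 9 genes, 6 passed between the sexes in WT on chow, against 3 with no filter on low counts and 1 with log2 CPM of Dbp as a covariate. The 1 call in WT on HFD (Bhlhe41) became 0 with only the groups compared, where this gene did not pass the filter on low counts, and the 0 of genotype in males on chow became 1 with DESeq2. The mean sex difference passed for 4 genes, for 2 without the chow WT groups and for 5 with DESeq2. Of the 19 co-varying pairs, 9 passed in females alone, and in males alone 28 pairs passed, including all 19 with the same sign. The alternatives with the Dbp covariate, without the chow KO or WT groups, and without WT female HFD replicate 3 in the pairs were chosen after seeing the data. Small mean sex differences changed sign: with the Dbp covariate Tef had 0.013, Nfil3 -0.052 and Bhlhe40 0.017, without the chow KO groups Hlf had -0.046, and without the chow WT groups Hlf had -0.026 and Bhlhe40 0.235. In females alone r was 0.03 for Hlf and Nfil3, -0.02 for Ciart and Bhlhe40 and -0.59 for Ciart and Rgs16. The cause was not tested in any of these.

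With each library left out, the number of genes called ranged from 4 to 6 in the sex mean, 2 to 7 in WT on chow, 1 to 2 in KO on chow, 0 to 1 in WT on HFD, 0 to 1 for diet in WT males and 1 to 2 for diet in KO males, and the number of pairs from 16 to 25. WT on chow had 2 without WT female chow replicate 4, and 3 without WT male chow replicate 3 or 4. The mean sex difference ranged from -0.018 to 0.034 for Hlf and from -0.108 to 0.014 for Bhlhe40. Of the counts, 748 of those with a library left out stayed within 1.5 times and 13 did not. Replicate numbers did not pair the samples: over 140 pairs of libraries with 1 number the mean r of their deviations was 0.006, against -0.001 for other pairs, and 12 of 40 libraries were closest to their own number. With a replicate block, Dbp in WT on chow had -2.83 (edgeR adjusted p = 0.0762) and Tef -0.85 (edgeR adjusted p = 0.0827). No setting shifted the median of all genes by more than 0.045. The counts of Bhlhe41 in females, 1 to 17 per library, limit its precision there.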

Other observations

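Among 13 genes of the fasting response, Pdk4, the kinase that restrains pyruvate oxidation, ran opposite to Dbp within groups (r = -0.57, rho -0.64, adjusted permutation p = 0.013) and to Tef (r = -0.62, rho -0.67, adjusted permutation p = 0.0021). Pdk4 went with Nfil3 (r = 0.55, rho 0.65, adjusted permutation p = 0.008) and with Lonrf3 (r = 0.57, rho 0.60, adjusted permutation p = 0.0064). Igfbp1, a hepatic binding protein of insulin-like growth factors, went with Nfil3 (r = 0.62, rho 0.55, adjusted permutation p = 0.0024). Sds, which encodes serine dehydratase, went with Tef (r = 0.61, rho 0.58, adjusted permutation p = 0.0056).

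Hlf ran opposite to 2 of 11 immediate early genes, Btg2 (r = -0.69, rho -0.59, adjusted permutation p = 0.00076) and Ier2 (r = -0.55, rho -0.40, adjusted permutation p = 0.022, and 0.12 by rank). These pairs are among the same 891 that were adjusted together, and the share of all genes passing with Hlf was not computed.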
